A study of Danio rerio with 32 samples.

Results

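Untraced V2a neurons taken 8 weeks after a spinal cord injury were compared with untraced V2a neurons of uninjured zebrafish, across 15818 of the 42370 gene IDs in the deposited table. These were the IDs with an FPKM of 1 or more in at least 5 of the 11 libraries compared. FPKM counts sequenced fragments per kilobase of gene and per library size. Of the 15818 genes, 13385 had a symbol, 2035 were loci assembled outside the annotation and 398 were Ensembl IDs with no symbol. A further 18950 IDs were above 0 in some library but below the filter, and 7602 were at 0 in all 11. The filter was met at exactly 5 libraries by 1481 genes and missed at exactly 4 by 1750. It was met through the 8-week libraries alone by 10 genes and through the uninjured libraries alone by 20.

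All fish carried a green fluorescent transgene that marks V2a neurons, and the labels used here give no age. Cells were sorted by fluorescence from spinal cord segments 1 to 7 of 20 fish per condition. A rhodamine dextran tracer, carried back along axons to the cell body, then divided the green cells. The uninjured untraced cells gave 6 libraries (Gcon), and the untraced cells at 8 weeks, described in the labels as neurons that had not regrown an axon, gave 5 (G8W). Side groups were untraced cells at 3 weeks (G3W, n = 5) and traced cells of uninjured fish (Dcon, n = 5), at 3 weeks (D3W, n = 5) and at 8 weeks (D8W, n = 6). The labels do not say that libraries of 1 group came from separate fish, and the p-values therefore reflect the scatter among these libraries, part of which may be technical. Lack of tracer defines both groups, and injury itself can move neurons into the untraced pool, so a changed makeup of that pool and a change within its neurons cannot be told apart. Fewer cells of a type and less RNA per cell cannot be told apart in such bulk libraries either.

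V2a neurons are excitatory spinal interneurons that use glutamate, drive motor neurons on the same side of the cord and take part in swimming. Zebrafish, unlike mammals, regrow many spinal axons after injury, but not all neurons do so. Neurons whose axons are cut commonly switch on injury genes, lower genes of synaptic transmission and excitability, and draw microglia, the resident phagocytes of the central nervous system, to their cell bodies.

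Depth ranges overlapped in part, and a marker of glutamatergic neurons was present in all libraries. Inferred depth was 13.2 to 26.9 M fragments in Gcon and 14.2 to 18.8 M in G8W. Gcon replicates 1, 2, 5 and 6, at 22.8, 23.4, 26.9 and 25.0 M, were deeper than every G8W library. At these depths 3 fragments in a gene of 1 kb correspond to 0.112 to 0.227 FPKM in Gcon and 0.159 to 0.212 in G8W. The number of genes reaching 1 FPKM ran from 10929 to 18328 per Gcon library and from 12221 to 18414 per G8W library. SLC17A6, the vesicular glutamate transporter, was present in all 11 through both of its gene copies (ENSDARG00000041150 and ENSDARG00000001127). Summed markers of oligodendrocytes and Schwann cells, the myelin-forming glia, were also high, at 2503 to 22909 FPKM in Gcon and 5658 to 16386 in G8W.

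At 8 weeks, 6 genes were higher and 1 was lower in untraced neurons than in untraced neurons of uninjured fish. Described here are 5 of the 6, scn4ab, TCIM, CYP26B1, b2m and the unannotated locus Novel06803, and the lower one, DGAT2. Of these, scn4ab, CYP26B1 and Novel06803 met the filter through G8W alone and DGAT2 through Gcon alone. For these genes the filter itself set the direction. The test was limma on log2 of scaled FPKM plus a pseudocount of 1, with Benjamini-Hochberg adjustment over all 15818 genes and a threshold of 0.05. The called genes were 0.0443% of those tested, with 0.0379% higher and 0.00632% lower. At an unadjusted p under 0.05 there were 1085 genes (6.86%), 711 higher (4.49%) and 374 lower (2.36%). On scaled values every G8W library was above every Gcon library for 109 genes (0.689%) and below for 72 (0.455%). Without the filter on low values 2 genes were called, scn4ab among them, with only the 2 groups in the fit 19, and with array weights, which count deviating libraries less, 99. Log2 fold changes include the pseudocount and so understate changes at low levels. Their median over the 15818 genes was 0.07, against -0.09 for unscaled FPKM and 0.00 under quantile normalization, and list medians are to be read against that shift.

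**Figure D1:**
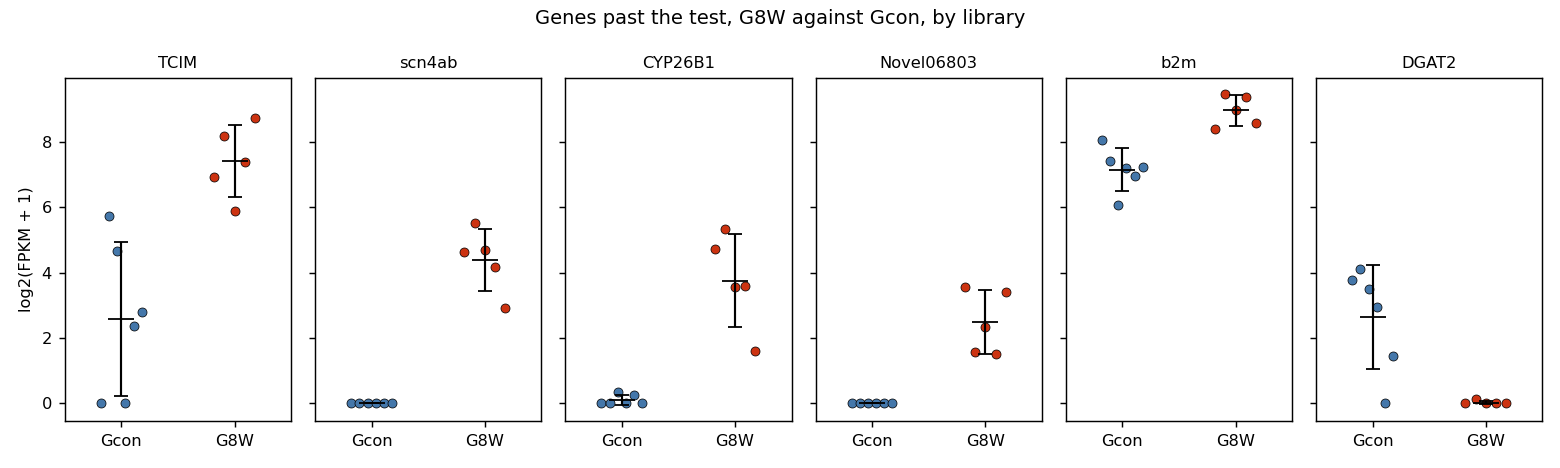
Expression of 6 called genes as log2(FPKM + 1) in each of the 6 Gcon (blue) and 5 G8W (red) libraries; the mark and bar give the mean and SD. The groups do not overlap for the 5 higher genes, but for scn4ab, CYP26B1 and Novel06803 the filter fixed this. DGAT2 met the filter through Gcon alone, and its Gcon replicate 5 lies at 0 with the G8W libraries.

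The sodium channel gene scn4ab, whose mammalian counterpart encodes the main sodium channel of skeletal muscle, was listed at 0 in all 6 Gcon libraries. In G8W, replicates 1 to 5, it was at 23.5, 45.2, 24.99, 17.1 and 6.56 FPKM. It is 1 of the 10 genes that met the filter through G8W alone, so the separation of the groups was given by the filter. The limma adjusted p was 0.0127, and the gene was also called without the filter. No fold is given against a group listed at 0. The call was lost without G8W replicate 2, at a limma adjusted p of 0.0769, and with only the groups compared and a replicate block (0.22). Of the 32 muscle and skin marker IDs, 28 were below the filter. The other 4 had log2 fold changes of -1.01 for actc1b, 0.03 for MYL1, 1.05 for tpma and 2.89 for krt8. The summed FPKM of the list was 22.3 to 78.1 in Gcon and 92.5 to 210 in G8W. The keratin krt8 alone made up 38.0% to 91.5% of the G8W sums. It was at 3.00 to 24.3 FPKM in Gcon and 41.1 to 192 in G8W, and the rest of the sums overlapped between the groups. The higher sum is therefore no measure of muscle markers. The part of the list in the scn4ab values was not tested.

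TCIM (ENSDARG00000076858), a small regulator of transcription and immune responses, was at 0, 51.7, 24.2, 0, 4.18 and 5.88 FPKM in Gcon replicates 1 to 6. In G8W it was at 121, 287, 57.9, 166 and 423 FPKM. The lowest G8W library was just above the highest Gcon library. This copy of TCIM rose by 4.83 on the log2 scale (SE 0.93, limma adjusted p = 0.0265), and TCIM without an ID refers to it. The other copy, ENSDARG00000079497, was at 151 to 1596 FPKM in Gcon and 356 to 957 in G8W (limma adjusted p = 0.661). The call of TCIM was lost without any 1 of G8W replicates 1, 2, 4 and 5 or Gcon replicates 1, 4 and 5, with adjusted p reaching 0.138. It was also lost with no filter, a pseudocount of 0.1, a replicate block in either fit, and both libraries with fewest genes left out (limma adjusted p up to 0.369).

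CYP26B1 encodes an enzyme that breaks down retinoic acid. Its FPKM was 0, 0, 0.272, 0, 0.201 and 0 in Gcon and 25.2, 39.5, 10.7, 10.97 and 2.03 in G8W. Replicate 5 of G8W was closest to the controls. CYP26B1 too met the filter through G8W alone, which fixed the order of the groups. The difference was 3.39 (SE 0.67, limma adjusted p = 0.0301), and without the filter it did not pass (0.0842). With 1 library left out, the call held only without Gcon replicate 1 or without G8W replicate 5. Leaving out any other library raised the adjusted p above the threshold, to at most 0.196. A replicate block, alone or with only the groups compared, and leaving out the libraries with fewest genes also ended the call (limma adjusted p up to 0.446).

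The immune gene b2m, the light chain of class I antigen-presenting molecules, was well expressed in both groups. It stood at 263, 168, 65.3, 146, 123 and 149 FPKM in Gcon and at 334, 702, 501, 661 and 383 in G8W. The groups did not overlap, and b2m rose by 2.03 on the log2 scale (SE 0.384, limma adjusted p = 0.0249). Its call was lost without any 1 of G8W replicates 2 to 5 or Gcon replicates 3 to 5, at adjusted p up to 0.105, and with FPKM as deposited, no filter or only the groups compared with a block (limma adjusted p up to 0.446). Since b2m is made by many cell types, the microglial marker sums given below stand beside it.

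The locus Novel06803, which has no symbol and no Ensembl ID, was outside the rule for named genes and is given after its values were seen. It was listed at 0 in all 6 Gcon libraries and at 10.8, 1.99, 4.08, 1.84 and 9.68 FPKM in G8W (limma adjusted p = 0.0211). It met the filter through G8W alone, and without the filter it did not pass (0.0574). The call was also lost without G8W replicate 1 or 5, with array weights, with quantile normalization, with only the groups compared, with or without a block, and with both libraries of fewest genes left out (limma adjusted p up to 0.525).

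DGAT2, which encodes the enzyme of the last step of triglyceride synthesis, was lower in G8W than in Gcon. Its FPKM was 12.7, 16.3, 10.4, 6.67, 0 and 1.73 in Gcon, and in G8W it was listed at 0 in 4 libraries and at 0.0932 in replicate 2. Gcon replicate 5 lay with the G8W libraries and Gcon replicate 6 was low, while the other 4 were clearly higher. The log2 difference was -2.24 (SE 0.436, limma adjusted p = 0.0265). Traced cells were low with and without injury, at 0 to 1.89 FPKM in Dcon and 0 to 0.58 in D8W. Among fits without 1 library, the call held only without Gcon replicate 5 or without Gcon replicate 6, and the adjusted p reached 0.105 without one of the others. DGAT2 met the filter through Gcon alone. The call was lost with no filter (0.0842), a pseudocount of 0.1, only the groups compared, with or without a block, and with both libraries of fewest genes left out (limma adjusted p up to 0.567).

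**Figure D2:**
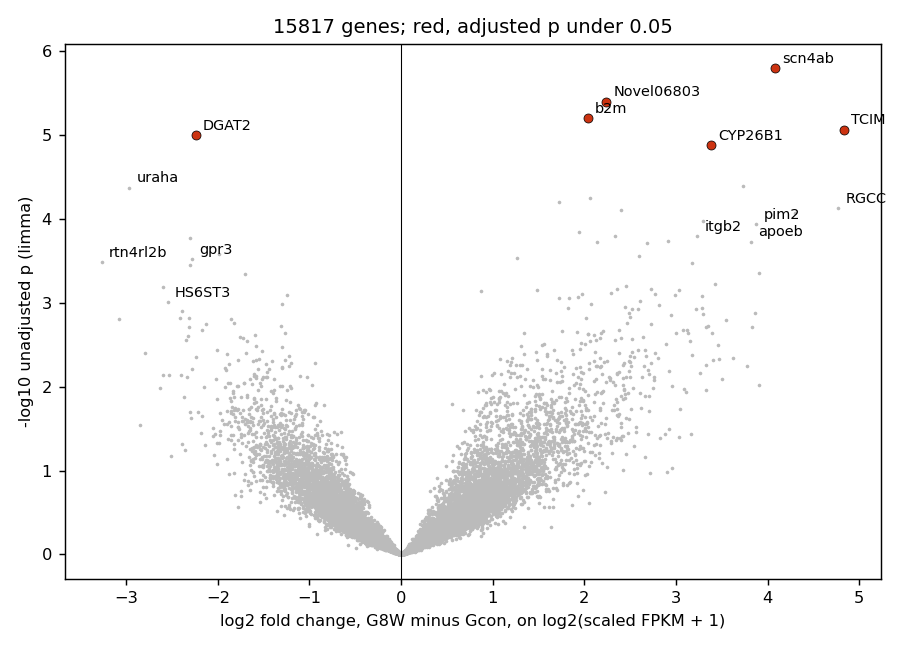
Log2 fold change (x) against -log10 of the unadjusted limma p (y) for 15817 genes, with 6 called genes in red and some others labelled. These 6 reach from -2.24 for DGAT2 to 4.83 for TCIM, and genes below the threshold reach similar fold changes.

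Next by p, none of them past the test, were 3 higher and 7 lower genes. RGCC, a regulator of the cell cycle, was at 12.9 ± 21.3 FPKM in Gcon (SD, n = 6) and 194 ± 188 in G8W (SD, n = 5; limma adjusted p = 0.0953). The sugar transporter SLC50A1 was at 0.542 ± 1.17 and 9.27 ± 7.8 FPKM, and the microRNA gene MIR101-1, as a gene and not as mature microRNA, at 6.19 ± 14.9 and 52.3 ± 36.0. For both, 1 Gcon library lay within the G8W range.

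Of the 7 lower genes, uraha, an enzyme of uric acid breakdown, had the smallest p. It was at 54.3, 49.0, 57.5, 16.0, 0.267 and 5.45 FPKM in Gcon and at 0, 2.25, 0, 3.24 and 0 in G8W (limma adjusted p = 0.0742). As with DGAT2, Gcon replicates 5 and 6 were the lowest of the controls, and uraha passed when either was left out. The receptor gpr3, which raises cyclic AMP without a ligand, was at 103 ± 41.2 FPKM in Gcon and 17.9 ± 11.6 in G8W (limma adjusted p = 0.17). The Nogo-receptor relative rtn4rl2b was at 63.6 ± 54.3 and 2.96 ± 3.41 FPKM (limma adjusted p = 0.178). HS6ST3 (ENSDARG00000069500), which adds sulfate to heparan sulfate, was at 5.89 to 32.4 FPKM in Gcon and 0.211 to 4.52 in G8W, with no overlap (limma adjusted p = 0.299). The other 3 were MCM6 (ENSDARG00000057683), of the replication helicase, FECH, of haem synthesis, and the glutamate receptor GRM3. In Dcon, the traced cells of uninjured fish, uraha and GRM3 were listed at 0 in all 5 libraries. Mean FPKM there was 0.33 for MCM6, 3.35 for FECH, 11.9 for HS6ST3, 12.8 for rtn4rl2b and 98.0 for gpr3.

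Genes of the gene lists were read as counts and medians beside those of all genes, where 53.8% had a positive fold change. At an unadjusted p under 0.05 by limma, 4.49% of all genes were higher and 2.36% lower. All G8W libraries were above all Gcon libraries for 0.689% of all genes and below them for 0.455%. The lists carry no test of their own, and a direction below is a description.

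**Figure D3:**
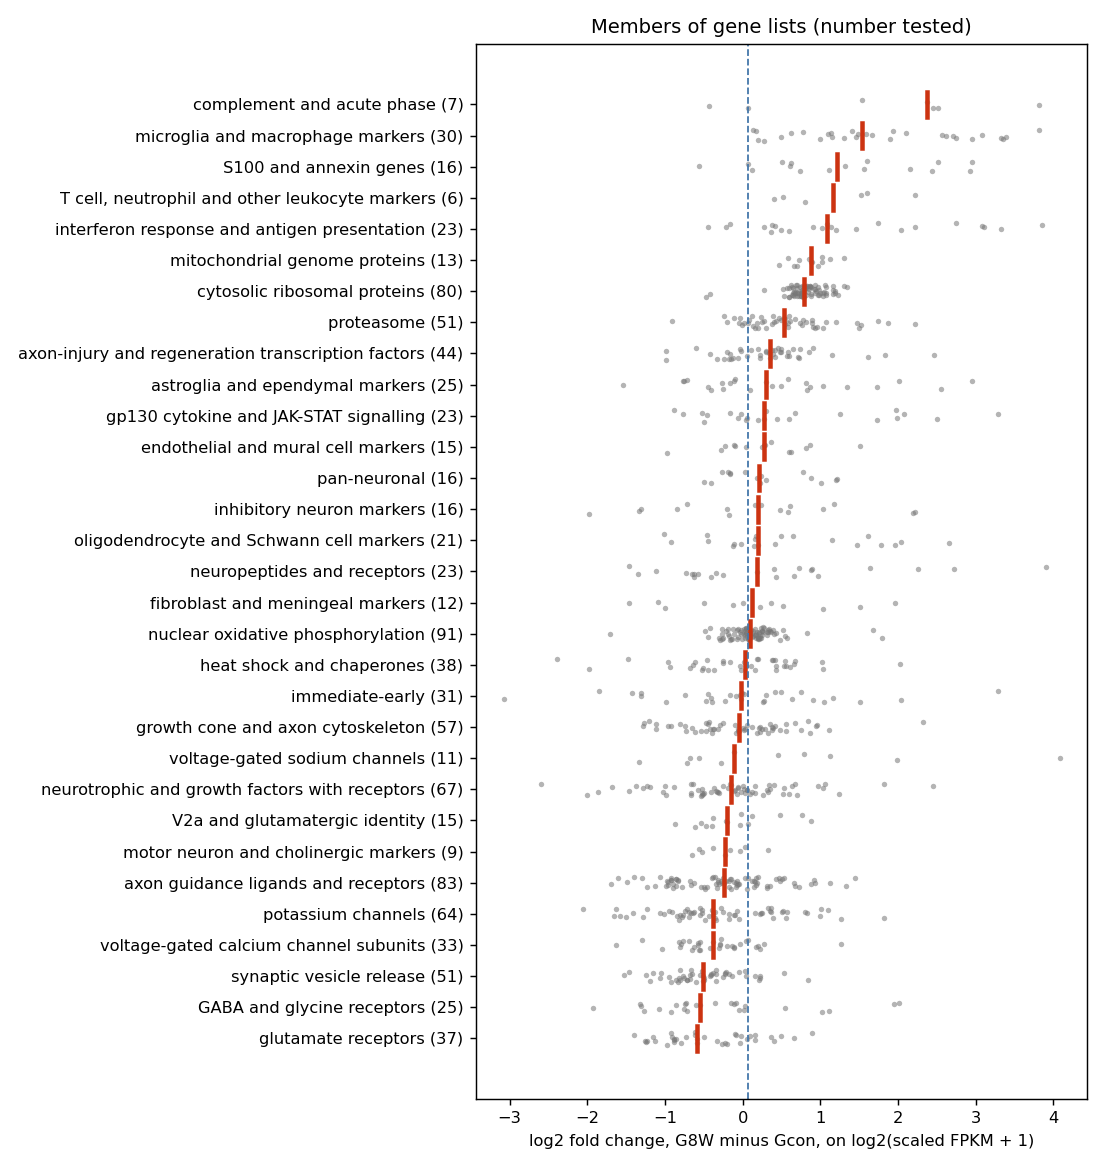
Log2 fold change of each tested member (grey points) of 31 gene lists, with the list median in red and the median of all genes, 0.07, as a dashed line. Medians range from -0.59 for glutamate receptors to 2.37 for complement and acute phase genes, of which only 7 were tested.

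Of the axon injury and growth lists, none held a called gene. Of 44 axon-injury and regeneration transcription factors, 30 had a positive fold change, 3 had an unadjusted p under 0.05 and were higher, and the median was 0.34. The stress-response factor CEBPB was at 4.91 to 225 FPKM in Gcon and 70.5 to 388 in G8W (limma adjusted p = 0.37). The classical injury factors had overlapping groups, with ATF3 at 53.2 ± 35.0 FPKM in Gcon and 69.9 ± 28.6 in G8W, and JUN at 556 ± 334 and 625.2 ± 389. The growth-cone protein gap43 was at 213 ± 66.2 FPKM in Gcon and 236 ± 82.0 in G8W, a log2 difference of 0.37 (SE 0.622). Its whole list of 57 growth cone and axon cytoskeleton genes had a median of -0.05. Of these, 5 were higher (8.77% against 4.49% of all genes) and 1 lower (1.75% against 2.36%) at an unadjusted p under 0.05.

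Among 23 genes of gp130 cytokine and JAK-STAT signalling, 15 had a positive fold change. At an unadjusted p under 0.05, 5 were higher (21.7% against 4.49% of all genes). The feedback inhibitor SOCS3 (ENSDARG00000025428) was at 25.3 ± 27.8 FPKM in Gcon and 130 ± 110 in G8W (limma adjusted p = 0.278). The cytokine partner crlf1a was at 0 in 5 of the Gcon libraries and at 2.41 in replicate 6, against 0 to 16.9 FPKM in G8W. Both copies of SOCS3 and crlf1a are among the 5 higher genes. Since crlf1a was set by name with earlier results of these data known, this list is no independent evidence. Of 31 immediate-early genes, 2 were higher and 2 lower at that p (6.45% each), with a median of -0.02. One of the latter, fosaa, was at 36.0 to 193 FPKM in Gcon and 0 to 29.2 in G8W (limma adjusted p = 0.345).

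Of 16 S100 and annexin genes, which encode calcium-binding proteins, 15 had a positive fold change, with a median of 1.22. At an unadjusted p under 0.05, 5 were higher (31.2% against 4.49% of all genes). The S100 gene s100a10b was at 199, 115, 134, 53.5, 18.8 and 11.12 FPKM in Gcon and 266, 301, 330, 125 and 458 in G8W (limma adjusted p = 0.547). The groups overlapped, because G8W replicate 4 lay within the Gcon range. The related gene icn was at 34.03 to 1137 FPKM in Gcon and 445 to 2264 in G8W. The list holds genes that earlier results of these data had already shown to respond to injury, so it is no independent evidence.

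Immune lists were among those with the highest medians. Of 23 tested interferon and antigen presentation genes, 20 had a positive fold change and 10 were higher at an unadjusted p under 0.05 (43.5% against 4.49% of all genes), with a median of 1.09. Only b2m was called. The immunoproteasome genes PSME1 and PSMB10 were at 17.8 ± 18.6 and 22.4 ± 17.8 FPKM in Gcon, and at 48.8 ± 25.1 and 46.7 ± 24.2 in G8W. Of 7 tested complement and acute phase genes, 6 had a positive fold change and 5 were higher at that p (71.4%), with a median of 2.37. The other 25 of the 32 IDs were below the filter. The median is the value of LECT2 (ENSDARG00000090889), a gene set by name with earlier results of these data known. This list is therefore no independent evidence. The lipid carrier apoeb, also a marker of microglia, was at 498, 27.3, 15.3, 188, 113 and 161 FPKM in Gcon. In G8W it was at 250, 2307, 1696, 1350 and 1628 (limma adjusted p = 0.129), with replicate 1 within the Gcon range. It passed without Gcon replicate 1 (limma adjusted p = 0.049) but with no other library left out (up to 0.368).

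Microglia and macrophage markers also had a high median. The lists share members, and apoeb is in both the complement and the microglial list. The 30 of 37 markers that passed the filter had positive fold changes, none was called, and the median was 1.54. At an unadjusted p under 0.05, 13 were higher (43.3% against 4.49% of all genes). The fold changes ran from 0.14 to 3.82. The summed FPKM of the list was 3028, 392, 179, 2317, 604 and 642 in Gcon and 845, 7171, 5565, 3659.7 and 3362 in G8W. G8W replicate 1 lay within the Gcon range and the other 4 above it (exact permutation test over 462 splits, two-sided p = 0.0216, adjusted over 14 library values 0.152). Without G8W replicate 1 the adjusted exact permutation p was 0.0333. It did not pass with any other library left out (0.0741 to 0.278), where fewer splits also raise the smallest p that can be reached. Of the 29 markers of other leukocytes, such as T cells and neutrophils, 6 passed the filter, with a median of 1.16. The microglial marker P2RY13 was at 0 in all 11 libraries. NADPH oxidase subunit NCF1, a phagocyte gene, was at 0 to 13.6 FPKM in Gcon and 8.17 to 49.4 in G8W. In each group b2m was lowest and highest in the libraries with the lowest and highest microglial sum. These were Gcon replicates 3 and 1 and G8W replicates 1 and 2. Other libraries did not follow that order. Gcon replicate 4, with a sum of 2317, held b2m at 146 FPKM, and replicate 2, with 392, at 168. G8W replicate 1 held b2m at 334 FPKM, above Gcon replicate 1 at 263 with its higher sum. The part of these cells in the rise of b2m and in the immune lists was not tested.

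The same sums stand beside scn4ab and CYP26B1. G8W replicate 2 had the highest microglial sum and the highest level of both genes, at 45.2 and 39.5 FPKM. G8W replicate 1, with the lowest microglial sum of its group, held them at 23.5 and 25.2 FPKM, and replicate 5, with the next lowest sum, at 6.56 and 2.03. Gcon replicate 1, with the highest sum of the controls, was at 0 for both. The part of microglia in these genes was not tested.

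**Figure D4:**
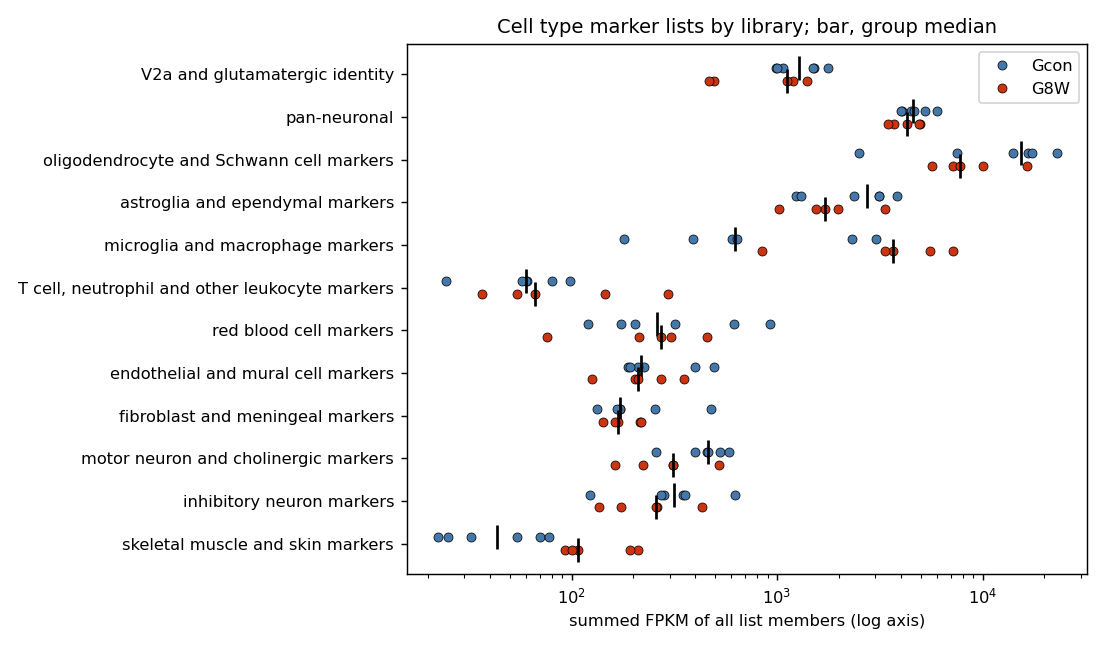
Summed FPKM of 12 cell type marker lists on a log axis, 1 point per library (Gcon blue, G8W red), with the group median as a bar. Microglia and macrophage sums are higher in 4 of 5 G8W libraries than in any Gcon library, and muscle and skin sums in all 5. The keratin krt8 made up 38.0% to 91.5% of the muscle and skin sums in G8W.

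Among the 14 library values, only the muscle and skin sum passed the test. It was at 47.1 ± 23.9 FPKM in Gcon (SD, n = 6) and 141 ± 55.9 in G8W (SD, n = 5). The exact two-sided p was 0.00216, the smallest that 462 splits allow (adjusted 0.0303). A single gene, the keratin krt8, made up 38.0% to 91.5% of that sum in the G8W libraries. It was at 3.00 to 24.3 FPKM in Gcon and 41.1 to 192 in G8W, and on its own it was not called (limma adjusted p = 0.423). The summed markers of oligodendrocytes and Schwann cells, astroglia, endothelium, fibroblasts, motor neurons and inhibitory neurons overlapped between the groups. Their mean sums were all lower in G8W, as with 13525 FPKM in Gcon and 9406 in G8W for oligodendrocytes, and none passed the test. Median fold changes were 0.19 for oligodendrocyte, 0.29 for astroglial, 0.27 for endothelial, -0.23 for motor neuron and 0.20 for inhibitory neuron markers. For fibroblast markers the median was 0.11, where unscaled FPKM gave -0.02. At an unadjusted p under 0.05, 5 of 21 oligodendrocyte markers were higher (23.8% against 4.49% of all genes) and 1 lower (4.76%). Of inhibitory neuron markers 12.5% were higher and 6.25% lower, and of astroglial markers 8% were higher. No endothelial, fibroblast or motor neuron marker reached that p. GFAP, the astroglial filament, was at 0 to 17.1 FPKM in Gcon and at 14.3 to 70.9 in G8W, and passed no test (limma adjusted p = 0.73).

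Genes of the ribosome were shifted to higher values as a group. Of 80 tested cytosolic ribosomal protein genes, 78 had a positive fold change and 36 were higher at an unadjusted p under 0.05 (45% of the list), with a median of 0.79 (0.56 for unscaled and 0.62 for quantile-normalized values). All G8W libraries were above all Gcon libraries for 19 of them, where the share over all genes was 0.689%. No member was called. RPL5 (ENSDARG00000020197), of the large subunit, was at 59.9 to 114 FPKM in Gcon and 134 to 197 in G8W (limma adjusted p = 0.385). RPL36AL was at 114 ± 23.7 and 228 ± 71.7 FPKM. Of 51 proteasome genes, 44 had a positive fold change, with a median of 0.53. PSME1 and PSMB10 are in this list and in the interferon list. The 91 nuclear genes of oxidative phosphorylation had a median of 0.10 and 38 heat shock and chaperone genes one of 0.03, both near that of all genes and both negative with the other scalings.

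The 13 protein genes of the mitochondrial genome all had a positive fold change, with a median of 0.87 that was 0.36 after quantile normalization. They took 7.09% ± 2.46 of FPKM in Gcon (SD, n = 6) and 11.06% ± 4.1 in G8W (SD, n = 5; exact permutation p = 0.0498, adjusted 0.232). MT-ND1, of the first respiratory complex, was at 240 to 1753 FPKM in Gcon and 1703 to 3375 in G8W. The groups overlapped by 1 library in FPKM and did not overlap on scaled values. The part of the mitochondrial share in other gene results was not tested.

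Genes of synaptic transmission were shifted to lower values. Of 51 tested synaptic vesicle release genes, 43 had a negative fold change, with a median of -0.51. At an unadjusted p under 0.05, 2 were lower (3.92%, near the 2.36% of all genes). The active-zone gene rims1b was at 0.985 to 10.9 FPKM in Gcon and 0.107 to 1.19 in G8W (limma adjusted p = 0.528). The vesicle gene SYNGR3 (ENSDARG00000025034) was at 143 ± 42.1 and 67.5 ± 40.9 FPKM. No member of the list was called. The negative medians of these synaptic and receptor lists kept their sign under both other scalings.

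The receptor lists had the lowest medians of all. Of 37 glutamate receptor genes, 28 had a negative fold change, with a median of -0.59. At an unadjusted p under 0.05, 3 were lower (8.11% against 2.36% of all genes). GRM3, a metabotropic receptor, was at 1.6 to 11.2 FPKM in Gcon and 0 to 1.96 in G8W (limma adjusted p = 0.278). Of 25 GABA and glycine receptor genes, 18 had a negative fold change (median -0.55), with 3 lower (12%) and 2 higher (8%) at that p. GABBR2, a subunit of the metabotropic GABA receptor, was at 25.5 ± 11.2 FPKM in Gcon and 7.87 ± 3.13 in G8W (limma adjusted p = 0.635). The glycine receptor GLRA2 went the other way, at 0 in 5 Gcon libraries and 0 to 9.55 FPKM in G8W.

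Ion channel lists were likewise mostly negative. Of 64 potassium channel genes, 44 had a negative fold change (median -0.39). At an unadjusted p under 0.05, 6 were lower (9.38%) and 2 higher (3.12%). The fast potassium channel KCNC1 (ENSDARG00000032959) was at 23.4 ± 11.14 FPKM in Gcon and 9.05 ± 10.5 in G8W. Of 33 calcium channel subunits, 26 had a negative fold change (median -0.39), and the low-voltage channel cacna1ha was at 2.64 to 7.53 and 0 to 3.30 FPKM. In Dcon, the uninjured traced cells, cacna1ha was at 0 to 1.07 FPKM and KCNC1 at 8.42 to 26.4. Of 11 sodium channel genes, scn4ab was the called one, and the median was -0.12.

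Among 83 axon guidance genes, 55 had a negative fold change (median -0.25). In all G8W libraries 2 lay below the Gcon range, where the share over all genes was 0.455%. One of them, the semaphorin receptor PLXNA2, was at 17.0, 23.4, 18.7, 19.3, 20.9 and 13.2 FPKM in Gcon and 1.34, 5.30, 7.95, 3.07 and 4.91 in G8W (limma adjusted p = 0.466). In Dcon, the uninjured traced cells, PLXNA2 was already at 0 to 14.4 FPKM, with a mean of 4.81. Of 67 growth factors and receptors, 5 were lower (7.46%) and 1 higher (1.49%) at an unadjusted p under 0.05. The growth factor igf2b was at 0 to 3.35 FPKM in Gcon and 2.62 to 15.8 in G8W, and bmp16 was at 6.73 to 26.0 and 0.6 to 4.1. Neither passed the test.

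Lists of neuronal identity had small medians on scaled values. Of the 15 tested V2a and glutamatergic identity genes, 10 had a negative fold change, and none had an unadjusted p under 0.05. Their median was -0.21, against -0.43 for unscaled and -0.17 for quantile-normalized values. The summed FPKM was 1307 ± 333 in Gcon and 934 ± 427 in G8W (exact permutation p = 0.154, adjusted 0.43). G8W replicates 4 and 5 were at 495 and 464 FPKM, below the lowest Gcon library at 992. G8W replicates 1 to 3 were within the Gcon range, at 1395, 1200 and 1115 FPKM. The 16 pan-neuronal genes had a median of 0.20, which the other scalings turned to -0.02 and -0.06, and their sums were 4752 ± 779 and 4276 ± 690 FPKM (exact permutation p = 0.316, adjusted 0.517). The 23 neuropeptide and neuropeptide receptor genes had a median of 0.18 (-0.04 with unscaled FPKM), and the peptide gene NMU ranged from 0 to 289 FPKM in Gcon and from 6.47 to 632 in G8W.

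Against untraced neurons at 3 weeks, the 8-week neurons showed no called gene. The comparison of G8W with G3W gave 0 of 15818 genes by limma and 393 (2.48%) at an unadjusted p under 0.05. Levels at 3 weeks stood beside those at 8 weeks as follows: scn4ab was at 61.5 ± 50.6 FPKM in G3W, CYP26B1 at 31.9 ± 30.1 and TCIM at 210 ± 119. The log2 differences of G8W minus G3W were -0.75 (SE 0.741) for scn4ab, -0.67 (SE 0.7) for CYP26B1, 0.17 (SE 0.971) for TCIM and 0.10 (SE 0.401) for b2m. DGAT2 was listed at 0 in 4 of 5 G3W libraries, with a difference of 0.00 (SE 0.455). Novel06803 had the highest difference of the 6, at 1.59 (SE 0.429, limma adjusted p = 1), and was listed at 0 in 3 of 5 G3W libraries. Novel06803, scn4ab and CYP26B1 met the filter through G8W alone, and G3W libraries had no part in it. For these genes the selection favoured positive differences of G8W minus G3W. Both comparisons with Gcon share the 6 Gcon libraries, and a p that misses the threshold does not show equal levels.

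Whether untraced and traced neurons differ in their 8-week change was tested as an interaction, which shares no library between its parts. It called 0 genes by limma, with 745 (4.71%) at an unadjusted p under 0.05. In traced neurons scn4ab was at 0.0997 ± 0.223 FPKM in Dcon, 24.6 ± 21.2 in D3W and 3.22 ± 4.41 in D8W. CYP26B1 was at 0.0967 ± 0.136, 12.7 ± 10.6 and 4.6 ± 6.67 FPKM in the same groups. No interaction is given for scn4ab and Novel06803, since Gcon is listed at 0, nor for CYP26B1 and DGAT2. Each of these met the filter through G8W or Gcon alone, which favoured the direction of its interaction. Novel06803 was listed at 0 in all 5 Dcon libraries and at 0 to 0.0956 FPKM in D8W. DGAT2 was low in traced cells, as given above. The count of 0 called genes does not show equal changes. For TCIM the interaction was -0.44 (SE 1.31, limma adjusted p = 0.997), and for b2m it was 0.41 (SE 0.543, limma adjusted p = 0.99). Both errors are wide enough to hold a difference either way. TCIM also rose in traced neurons (limma adjusted p = 0.00636).

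**Figure D5:**
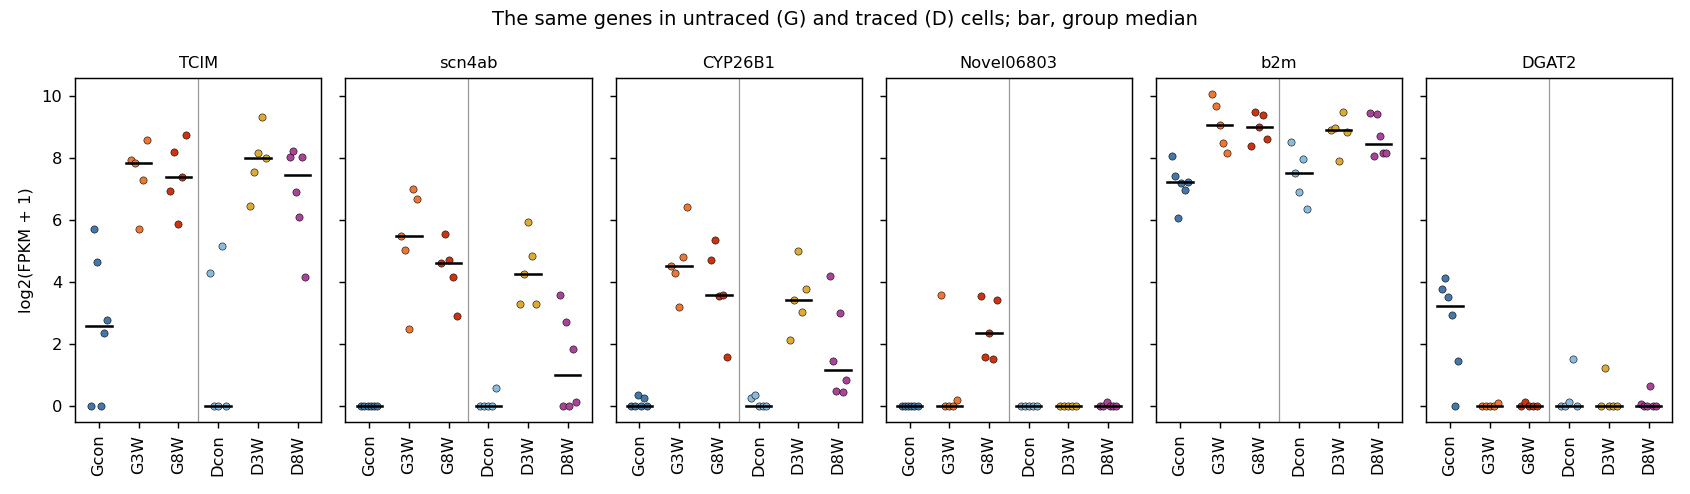
The 6 described called genes as log2(FPKM + 1) in untraced (G) and traced (D) libraries, uninjured and at 3 and 8 weeks, with the group median as a bar. At 8 weeks scn4ab is at 6.56 to 45.2 FPKM in untraced cells and 0 to 11.02 FPKM in traced cells, and b2m and TCIM overlap between them as well.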

How the data were processed

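The authors deposited 1 table of FPKM values per gene and library for 32 libraries. The danRer11 build, HTSeq 0.9.1 and HISAT2 2.0.5 are listed in the submitters' processing notes without their roles. Per the labels, cDNA was made with a low-input kit. In all, 29178 of 42370 IDs had a symbol, and 1719 symbols are shared by more than 1 ID, for which the ID is given and paralogues may share reads. No genome of the files' build was used here, so no positions are given. Depth was inferred from the steps of low FPKM values and covers counting error only.

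Each library was scaled by its median ratio over the 6387 genes that reached 1 FPKM in 28 or more libraries (pseudocount 0.1) and values were log2-transformed with a pseudocount of 1. In R 4.3.3, 1 limma 3.58.1 model with a mean per group and a robust, trended prior was fitted to all 32 libraries, leaving 26 residual degrees of freedom. P-values are two-sided. Library values were tested by exact permutation of 11 libraries. The script was tested on simulated data. Tables and plots were made with matplotlib 3.10.9, scipy 1.17.1, pandas 2.3.3 and numpy 2.4.6 under Python 3.11.15.

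Members and lists were chosen with earlier results of these data known. Named genes were called genes that had a symbol and whose higher group averaged 5 FPKM or above and had 3 or more libraries at 1 FPKM, the next by p up to 8 in a direction, at most 2 uncalled members a list by p, and a few set by name. Of 43 lists, 31 are described; the other 12 had medians of -0.16 to 2.29, the last from genes picked on these data. Alternatives were other scalings, pseudocounts, filters and samples, weights, a replicate block and leaving out each library. Some genes are not reported here.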

Additional observations from a re-analysis of the deposited data

Results flagged for a closer look

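In 168 groups of values from 1 gene or sum in Gcon or G8W, 16 held a library standing apart by Dixon's criterion. Chance gives about 1 in 20 for normally distributed values. Several flagged genes were listed at 0 in most libraries of the group, so that rate does not apply and 16 is not read as an excess. In Gcon these were krt18a.1 at 6.07 FPKM and gpr3 at 32.1, its lowest, both in replicate 2, and pim2 at 11.4 FPKM and MT-ND1 at 239.9, its lowest, in replicate 1. SLC50A1 stood apart at 2.92 FPKM and kcnip3b at 13.8 in replicate 5, MIR101-1 at 36.7 and LECT2 (ENSDARG00000090889) at 38.6 in replicate 4. GLRA2 stood apart at 3.32 FPKM and crlf1a at 2.41 in replicate 6, and rgl3a at 13.6 in replicate 3. The summed fibroblast and meningeal markers stood apart at 478 FPKM in Gcon replicate 1. In G8W, replicate 2 was highest for DGAT2 at 0.0932 FPKM and for MCM6 (ENSDARG00000057683) at 0.611. Replicate 1 was lowest for the microglial and antigen-presenting genes apoeb, at 250.1 FPKM, and cd74a, at 139.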

How the results depend on the processing

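The number of genes called in G8W against Gcon, 7, was 99 with array weights (87 higher, 12 lower), 19 with only the groups compared, 2 without a filter on low values and 1 with only the groups compared and a replicate block; the cause was not tested. Leaving out 1 library at a time gave 2 (without G8W replicate 2) to 12 (without Gcon replicate 1). Same-numbered G8W and Gcon libraries correlated at -0.12 to 0.13 over 5 pairs, and 1 of the 5 correlated best with its own number. Few pairs cannot show that numbers carry no pairing. Pairing of untraced with traced libraries was not checked, and the interaction treats them as independent. With a replicate block in the full model 5 of the 7 genes were called and no other. The detected-gene covariate, the fit without the libraries with fewest genes and the groups-only fit with a block were added after seeing the data; the covariate called the same 7 genes, and the second called 9, of which 3 were among the 7. Against G3W the count of 0 became 7 with array weights, and 1 with the filter over 32 libraries or no filter (Novel01966, lower in G8W); leaving out 1 library gave 0 to 1 (Novel06803). The interaction gave 0 to 1 (airim, without Dcon replicate 4). These 2 loci other than Novel06803 were named after their values were seen. With array weights the called members were 5 of the interferon list, 4 of the microglial, 3 of the gp130, 2 of the complement and of the ribosomal list, and 1 each of the regeneration factor, proteasome, GABA and glycine receptor, growth factor and oligodendrocyte lists. The called interferon member was lost (0) with FPKM as deposited, no filter and groups only with a block, and became 2 without the libraries with fewest genes. That fit called 1 complement and 2 microglial members, and the groups-only fit 1 of each. Leaving out 1 library gave 0 to 1 interferon, 0 to 2 complement, 0 to 1 microglial and 0 to 1 sodium channel members; the groups-only fit with a block left 0 sodium channel members. List medians moved to 0.36 for the mitochondrial genome with quantile normalization, and with a pseudocount of 0.1 to 2.58 for leukocyte and 0.75 for endothelial markers. The pan-neuronal sum changed sign with scaled FPKM (198.1), and the fibroblast sum without Gcon replicate 1 (1.45; range without 1 library -67.7 to 1.45). The muscle and skin difference was 76.5 to 106 FPKM without 1 library, with an adjusted exact permutation p of 0.0333 to 0.111 over fewer splits. The groups stayed apart each time. Fewer splits raise the smallest p that can be reached, so missing the threshold there does not show a weaker difference. The microglial difference, 2927, was 2164 to 3746 without 1 library, highest without G8W replicate 1. Depth limits genes below about 0.2 FPKM.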

Other observations

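A few further genes, chosen after their values were seen and not past the test, stood high in G8W. The keratin krt18a.1, a partner of krt8 in simple epithelia, was at 0 to 6.07 FPKM in Gcon and 7.02 to 70.6 in G8W, with no overlap (limma adjusted p = 0.218). The leukocyte integrin itgb2 was at 0 to 3.57 FPKM in Gcon and 5.64 to 29.1 in G8W, also with no overlap (limma adjusted p = 0.129). The kinase pim2 was at 0 to 11.4 FPKM and 7.57 to 73.6. The class II antigen-presenting genes cd74a and mhc2dab were at 403 ± 576 and 49.4 ± 62.0 FPKM in Gcon (SD, n = 6), and at 1179 ± 733 and 300 ± 323 in G8W (SD, n = 5). Their groups overlapped, with Gcon replicate 1 at 1525 FPKM of cd74a. These genes are markers of immune or epithelial cells as well as of injury, and their source was not tested.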
